A study of Mus musculus with 6 samples.

Results

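The Pax and myogenic basic helix-loop-helix (bHLH) regulators are the transcription factors that mark muscle stem cells and carry them toward muscle. The 7 genes described are Pax7, Pax3, Myf5, Myod1, Myog, Myf6 and Msc, taken by exact symbol from a table of 43283 genes. All 7 were found, and each symbol had 1 row. RNA was sequenced from cultured mouse muscle stem cells after 24 h with prostaglandin E2 (PGE2), a lipid mediator of injured tissue, or with DMSO (Vehicle), in 6 libraries, 3 per group. Both groups were C57BL/6 females with no transgene or deletion named in the labels. The sample labels give an age of 8 to 12 weeks and the series text 2 to 4 months. The cells were sorted from hindlimb muscle as positive for alpha7 integrin and CD34 and negative for CD45, Sca1, CD31 and CD11b. They were kept in 20% fetal bovine serum in both groups, and 5000 to 10000 cells gave each RNA sample. The PGE2 dose is not given in the sources used here. Since no label ties the replicates to separate animals, sorts or cultures, p-values here measure only how far these libraries spread, part of which may be technical.

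In adult muscle, the paired-box factor Pax7 marks quiescent and activated stem cells. Its close relative Pax3 founds the limb muscle lineage in the embryo and persists in the stem cells of some adult muscles. The myogenic regulatory factors Myf5, MyoD, myogenin and Myf6 (also called MRF4) bind the E-box, CANNTG, as dimers with E proteins. Myf5 and MyoD are present in committed, dividing myoblasts. Myogenin starts terminal differentiation, and Myf6 is most abundant in fibres. Musculin, encoded by Msc, is a bHLH repressor that competes with MyoD for E-boxes. PGE2 receptors EP2 and EP4 raise cAMP, which activates CREB, a factor that binds TGACGTCA or its core TGACG.

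All positions are in build mm10. Pax7 (ENSMUSG00000028736) lies on chromosome 4, 139737062 to 139833528, minus strand. Pax3 (ENSMUSG00000004872), Myog (ENSMUSG00000026459) and Msc (ENSMUSG00000025930) are all on chromosome 1, at 78101267 to 78197134 on the minus strand, 134289989 to 134292548 on the plus strand and 14753346 to 14755992 on the minus strand. Myod1 (ENSMUSG00000009471) lies on chromosome 7, 46376474 to 46379099, plus strand. Myf5 (ENSMUSG00000000435) and Myf6 (ENSMUSG00000035923) are neighbours on the minus strand of chromosome 10, at 107482908 to 107486134 and 107492853 to 107494737, with 6718 bases between them. Of the 7 genes, Msc alone overlaps another annotated gene, the antisense Gm9947. Gm9947 read 1.66, 0.31 and 0 TPM in the Vehicle libraries and 0 in those with PGE2. The labels do not say that the counting used strand, so reads of Msc and Gm9947 may not be told apart.

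The promoters of Myf5 and Myog are shown because these neighbouring steps of the lineage were far apart in level here, and Myog is the member without any reading in PGE2. RefSeq (GRCm38.p6) gave promoter windows for Pax7, Myf5 and Myog, 3 of the 7 genes. The 250 bases before the RefSeq start are printed 5′ to 3′ on the gene's strand, for Myog chr1:134289754-134290003 and for Myf5 chr10:107486135-107486384. Capitals mark matches on either strand to the E-box CANNTG or the CREB core TGACG.
Myog: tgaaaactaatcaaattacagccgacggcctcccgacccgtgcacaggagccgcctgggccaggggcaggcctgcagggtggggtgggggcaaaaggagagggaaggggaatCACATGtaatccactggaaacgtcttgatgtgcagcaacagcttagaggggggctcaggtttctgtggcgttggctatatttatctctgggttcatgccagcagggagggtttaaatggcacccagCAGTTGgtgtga
Myf5: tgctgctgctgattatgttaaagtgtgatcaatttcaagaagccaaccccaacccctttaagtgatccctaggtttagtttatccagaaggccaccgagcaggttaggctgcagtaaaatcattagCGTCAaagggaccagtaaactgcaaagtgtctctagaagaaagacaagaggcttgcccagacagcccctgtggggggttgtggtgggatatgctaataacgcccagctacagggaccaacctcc
The Myog window held 2 E-boxes, CACATG and CAGTTG, whose first bases lie 138 and 12 bases before the start. At least 1 E-box was in 66.2% of the 32851 promoter windows of this length in the RefSeq table, and 2 or more were in 31.8%. The Myf5 window held no E-box and 1 CREB core, CGTCA on the strand shown, whose first base lies 124 bases before the start. A CREB core was in 17.8% of all windows. The Pax7 window held neither motif, and none of the 3 windows held the full TGACGTCA, which was in 1.55% of all windows. The RefSeq starts of Pax7 and Myog lie inside the GENCODE genes at the positions given above, so the whole Pax7 window and the end of the Myog window, with CAGTTG, fall within those genes. These are matches of letters in a short window and say nothing about binding.

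Values are TPM, which scales each library to a fixed total after correcting for transcript length, so levels can be compared between genes within a library. Read depth is unknown because TPM does not keep it. The libraries correlated with each other at Pearson's r of 0.807 to 0.926 over log2(TPM + 1) of the tested genes, and PGE2 1 and PGE2 2 had the lowest mean r to the others (0.845 and 0.843). The number of genes listed above 0 was 16446 to 19677 in Vehicle and 15400 to 17710 in PGE2. Pax7, Myf5 and Myod1 were read in every library, and the genes of the sort markers, which define the labelled cells, were lower. Itga7, encoding alpha7 integrin, ran from 4.68 to 10.4 TPM in Vehicle and 2.69 to 13.2 TPM in PGE2. Cd34 ran from 12.4 to 25.8 TPM and from 13.1 to 26.2 TPM. The stem cell cadherin gene Cdh15 was low, at 3.56, 1.38 and 0 TPM under Vehicle against 5.15, 0.43 and 0.79 TPM under PGE2.

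Among markers of cells outside the sort, the collagen gene Col3a1, on the fibro-adipogenic list, stood highest, above Cd34 in 5 of the 6 libraries. Beside the sort markers, the highest member of each list and those at 0 in all 6 libraries are named here, chosen after their values were seen. Leukocyte markers, 10 in number, summed to 2.93 to 11.9 TPM in Vehicle and 8.25 to 14.97 TPM in PGE2. Itgam was at or under 2.44 TPM, Ptprc at or under 4.81 TPM, Laptm5 reached 6.45 TPM in PGE2 1, and Cd52 was at 0. The 10 endothelial markers summed to 4.16 to 7.81 TPM and 7.18 to 19.9 TPM, with Pecam1 at or under 1.55 TPM and Cldn5 at 0. Emcn, of this list, read 15.3 TPM in PGE2 3, most of the sum in that library, and at most 0.87 TPM in the others. Eng, an endothelial receptor gene of the same list, was higher in each PGE2 library than in any Vehicle library, as were 3.18% of all tested genes. Its log2 change of 1.05 ± 0.56 (SE) did not pass limma's test (Benjamini-Hochberg adjusted p = 1.00). The 10 fibro-adipogenic markers, cells that carry Sca1, summed to 30.0 to 41.5 TPM and 32.6 to 54.8 TPM, with Pi16 and Dpp4 at 0. Ly6a, the gene of Sca1, read 2.22, 3.38 and 7.92 TPM under Vehicle against 0, 13.6 and 0 TPM under PGE2. In PGE2 2 it stood above Itga7 (2.69 TPM). Col3a1 read 15.3, 28.1 and 20.2 TPM under Vehicle against 36.45, 30.4 and 24.9 TPM under PGE2, the largest part of the sum in each library. The 8 pericyte and smooth muscle markers summed to 7.45 to 16.8 TPM and 11.2 to 12.8 TPM, with Acta2 up to 13.4 TPM and Pdgfrb at 0. The part of these cells in the results was not tested. In such bulk samples, fewer cells of a type and less RNA per cell cannot be told apart.

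Across the 7 genes, Myf5 and Myod1 stood highest and Myog and Myf6 lowest. Ranked by mean TPM over the 6 libraries among all 43283 genes, Myf5 was at place 484, Myod1 at 1039 and Pax7 at 2424. Pax3 was at place 9670, Msc at 10486, Myog at 14463 and Myf6 at 20997. The lowest Myod1 value of any library, 89.5 TPM, lay above the highest Pax7 value, 67.0 TPM, so these neighbours in the order did not overlap. Pax7 was likewise above Pax3 in each library, with a lowest value of 23.9 TPM against a highest Pax3 value of 8.23 TPM. Pax3, Msc and Myog overlapped, and their order among themselves is within the spread of the libraries.

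**Figure D1:**
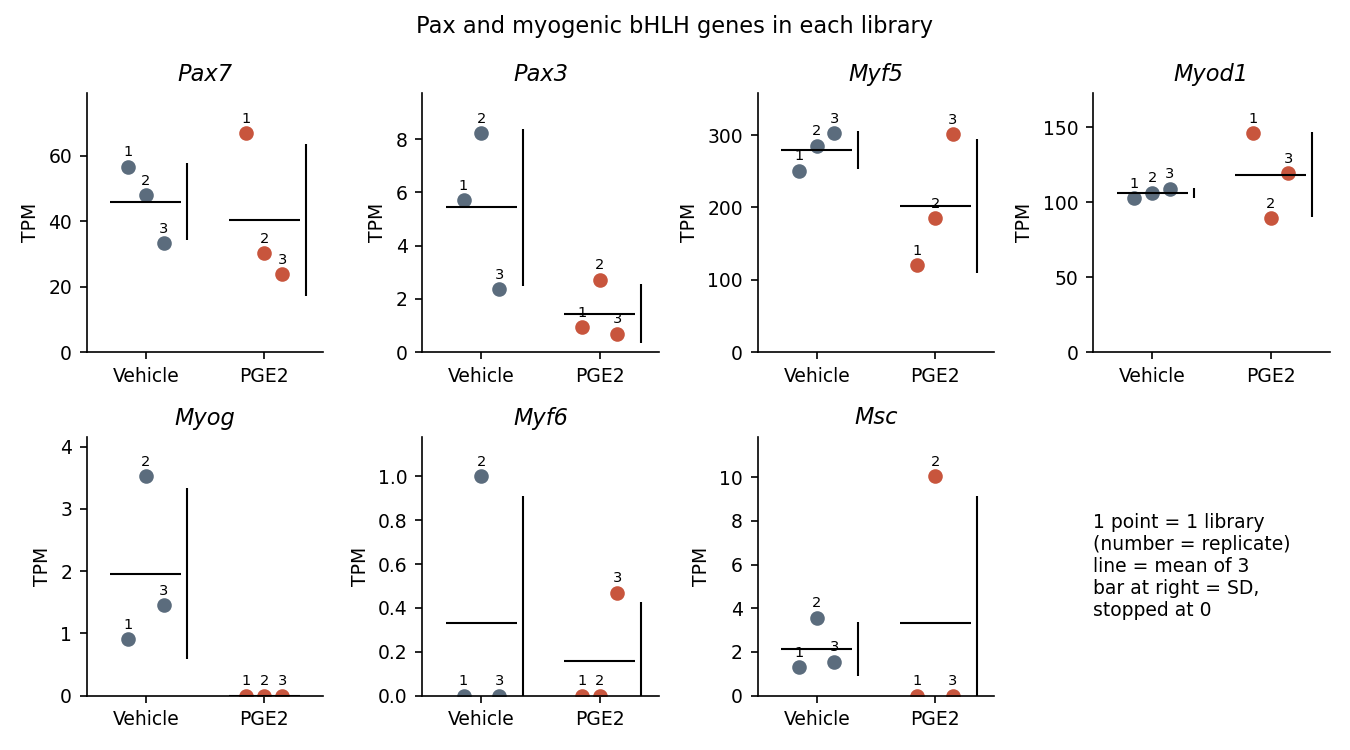
TPM of the 7 genes (vertical axes from 0, a scale for each gene) in the 3 Vehicle and 3 PGE2 libraries. Points are libraries with their replicate number, lines are means and bars are SDs. Values of the 2 groups overlap for 6 genes, and Myog is at 0 in the PGE2 libraries and between 0.91 and 3.52 TPM in Vehicle.

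With PGE2, none of the 5 regulators that could be tested (Pax7, Pax3, Myf5, Myod1 and Msc) passed limma's test. Myog and Myf6 were under the minimum of 1 TPM in at least 3 libraries. Over all 12781 genes tested, 0 (0%) had an adjusted p under 0.05 (Benjamini-Hochberg, as throughout), while 464 (3.63%) had an unadjusted p under 0.05, none of them among the 5. Of the 5, 4 had a lower fitted value in PGE2, where 56.1% of all tested genes did. The median log2 change of the 5 was -0.43, the value of Msc, beside -0.07 over all tested genes. Msc was at 0 in 2 libraries, and its mean TPM was higher in PGE2. Without PGE2 3, the log2 changes were 0.007 for Pax7, 0.108 for Myod1 and 0.148 for Msc, and -1.15 for Pax3 and -0.90 for Myf5. For none of the 5 did the groups separate. Over all tested genes, every PGE2 library was below every Vehicle library for 4.84% and above for 3.18%. A log2 change here is the PGE2 level less the Vehicle level, both as log2(TPM + 1), a scale that understates the change of low genes.

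Pax7 read 56.7, 47.9 and 33.3 TPM in Vehicle libraries 1, 2 and 3, against 67.0, 30.3 and 23.9 TPM in PGE2 libraries 1, 2 and 3. The highest and the lowest reading were thus both in PGE2 libraries, and the Vehicle values lay between. Its fitted PGE2 level was 0.82-fold that of Vehicle on this scale, with a 95% confidence interval from 0.42-fold to 1.58-fold. The Benjamini-Hochberg adjusted p in limma was 1.00. A change of Pax7 by more than these bounds in either direction is outside the interval, and smaller ones are not resolved by 3 libraries per group.

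Pax3 read 5.70, 8.23 and 2.37 TPM under Vehicle against 0.93, 2.72 and 0.70 TPM under PGE2. The groups met at 1 pair of libraries: PGE2 2 lay above Vehicle 3, and every other PGE2 library was below every Vehicle library. Pax3 had the lowest fold among the 5, 0.39-fold, with an interval from 0.15-fold to 1.00-fold. Its limma p was 0.0508 before and 1.00 after Benjamini-Hochberg adjustment. Leaving out 1 library in turn gave log2 changes from -1.77 (without Vehicle 3) to -1.05 (without Vehicle 2), around the value of -1.37 over all 6. Relative to Pax7 in the same library, Pax3 was at 0.101, 0.172 and 0.071 in Vehicle and 0.014, 0.090 and 0.029 in PGE2. These ratios overlapped between the groups too, since PGE2 2 lay above Vehicle 3.

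Myf5, the most abundant of the 7, read 251, 285 and 303 TPM under Vehicle against 119.8, 185 and 301 TPM under PGE2. PGE2 1 and PGE2 2 lay below the Vehicle range and PGE2 3 lay inside it. The fold was 0.68, with an interval from 0.39-fold to 1.17-fold (limma adjusted p = 1.00). The log2 change of -0.56 moved with single PGE2 libraries: it became -0.24 without PGE2 1 and -0.90 without PGE2 3. Without PGE2 3 the unadjusted limma p was 0.0218 and the Benjamini-Hochberg adjusted p 0.784.

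Myod1 was the steadiest of the 7 in Vehicle, at 103, 106 and 109 TPM. In PGE2 it read 146, 89.5 and 119 TPM, with libraries on both sides of the Vehicle range. The fold was 1.09, with an interval from 0.70-fold to 1.72-fold (limma adjusted p = 1.00). Its interval was the narrowest of the 5, and its log2 change of 0.13 became -0.04 without PGE2 1.

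**Figure D2:**
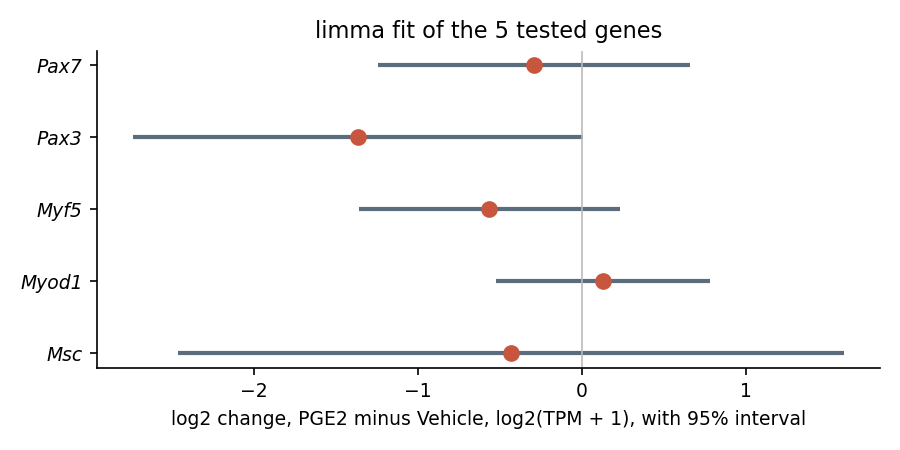
Log2 change (horizontal axis, difference of log2(TPM + 1), PGE2 minus Vehicle) of the 5 tested genes, with points for the limma estimate and lines for its 95% confidence interval. Each interval holds 0. The interval of Pax3 ends at 0.01 and that of Msc runs from -2.46 to 1.60.

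The balance between Myf5 and Myod1 differed most in 1 library. Myf5 was 2.44, 2.68 and 2.78 times as abundant as Myod1 in Vehicle and 0.82, 2.07 and 2.53 times in PGE2. In PGE2 1 alone the order of the pair was turned, with Myod1 above Myf5. Of the summed TPM of the 4 myogenic regulatory factor genes, Myf5 held 70.7% to 73.3% in Vehicle, and 45.0%, 67.4% and 71.6% in PGE2. The sum itself was 355, 396 and 413 TPM under Vehicle against 266, 274 and 421 TPM under PGE2. The groups overlapped on each of these measures.

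**Figure D3:**
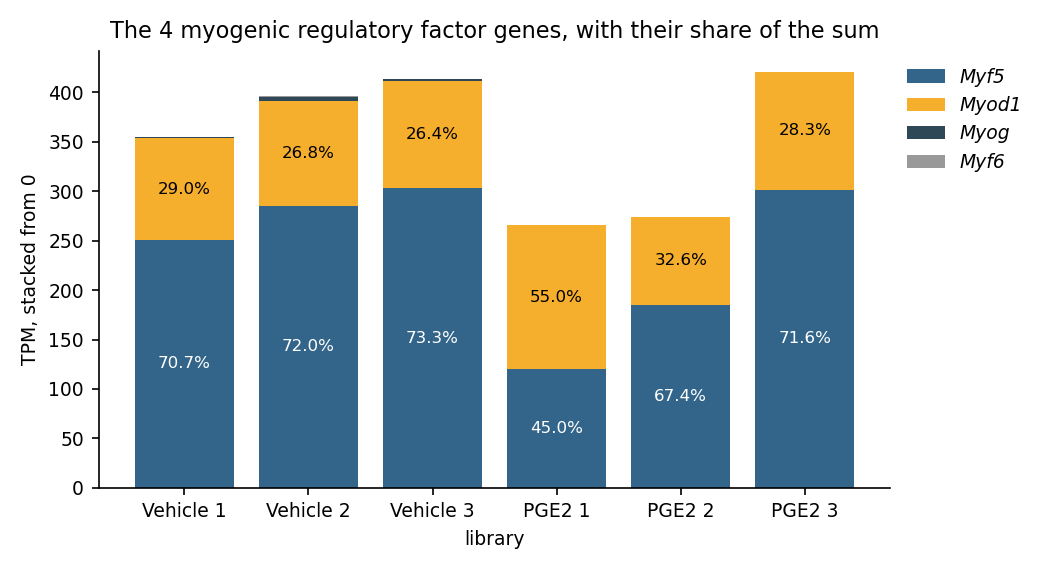
Stacked TPM (vertical axis, from 0) of Myf5, Myod1, Myog and Myf6 in each of the 6 libraries, with the share of the sum held by Myf5 and Myod1 printed in the bars. Myod1 holds 55.0% in PGE2 1 and 26.4% to 32.6% in the other libraries.

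Pax7 and Myf5 took opposite places among the libraries of each group. In Vehicle, the library with the highest Pax7 (56.7 TPM) had the lowest Myf5 (251 TPM), and the one with the lowest Pax7 (33.3 TPM) had the highest Myf5 (303 TPM). The same held in PGE2, from 67.0 TPM of Pax7 with 119.8 TPM of Myf5 to 23.9 TPM with 301 TPM. The Pax7 to Myf5 ratio ran from 0.110 to 0.226 in Vehicle and from 0.079 to 0.559 in PGE2. Within each group the mitochondrial share of TPM ran opposite to this ratio, lowest where Pax7 was highest. The share was 20.9%, 28.3% and 33.6% in Vehicle 1, 2 and 3, against 23.0%, 25.5% and 30.4% in the PGE2 libraries in the same order. With TPM rescaled to leave out mitochondrial genes the opposite places of Pax7 and Myf5 were kept. Pax7 was then at 72.2, 67.2 and 50.4 in Vehicle and 87.7, 41.0 and 34.5 in PGE2, and Myf5 at 319, 400.1 and 458 and at 157, 249.8 and 435. With 3 libraries per group this is a description of these libraries.

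**Figure D4:**
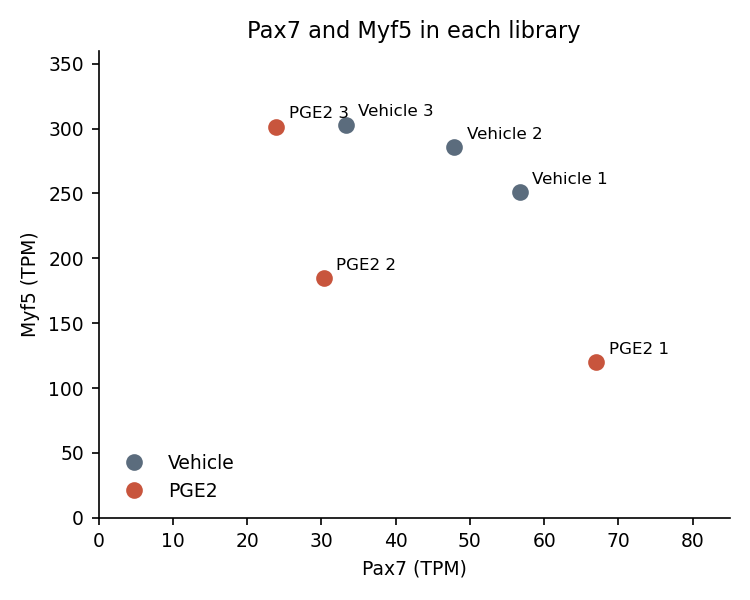
Pax7 (horizontal axis, TPM) against Myf5 (vertical axis, TPM), with 1 labelled point per library. Within each group the libraries run from high Pax7 with low Myf5 to low Pax7 with high Myf5, and PGE2 1 lies at 67.0 TPM of Pax7 and 119.8 TPM of Myf5.

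The spread between libraries was wider with PGE2 for 4 of the 7 regulators. The SD of log2(TPM + 1) was 0.38 in Vehicle and 0.76 in PGE2 for Pax7, 0.14 and 0.66 for Myf5, 0.04 and 0.35 for Myod1, and 0.53 and 2.00 for Msc (n = 3 each). It was wider in Vehicle for Pax3 (0.74 and 0.61), for Myf6 (0.58 and 0.32) and for Myog, which was at 0 in PGE2 throughout. Of the 5 tested regulators 4 were thus wider in PGE2, as were 69.5% of all tested genes.

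Myog, which switches on the differentiation programme, read 0.91, 3.52 and 1.45 TPM under Vehicle, while all 3 PGE2 libraries list it at 0. It is the only 1 of the 7 whose groups did not overlap. The exact permutation test over the 6 libraries (two-sided) gave p = 0.1, the smallest that 3 against 3 allows. A listed 0 can be a failed estimate at low depth, so no fold is given. Of 2375 protein-coding genes above 0 in every Vehicle library with a Vehicle mean of 1 to 4 TPM, 34 (1.43%) were at 0 in every PGE2 library. In the reverse direction the count was 15 of 1945 (0.771%). Without the filter on low values, Myog was 1 of 26770 genes and had a limma p of 0.0287 before and 0.874 after Benjamini-Hochberg adjustment.

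Myf6, the fibre-stage factor, was at the floor in both groups. It read 0, 1.00 and 0 TPM under Vehicle against 0, 0 and 0.47 TPM under PGE2, with an exact permutation p of 1.00 (two-sided). Its neighbour Myf5 had no library below 119.8 TPM.

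Msc, the repressor, read 1.31, 3.58 and 1.55 TPM under Vehicle against 0, 10.04 and 0 TPM under PGE2. A single PGE2 library held the highest value of all 6, and the other 2 were below the Vehicle range at 0. The fold was 0.74 with an interval from 0.18-fold to 3.03-fold, the widest of the 5 (limma adjusted p = 1.00). On the TPM scale the direction was the other way, with a mean of 2.15 TPM in Vehicle and 3.35 TPM in PGE2. The log2 change was -0.43, and it became 0.15 without PGE2 1 or without PGE2 3. Ly6a, the fibro-adipogenic marker that encodes Sca1, was likewise at 0 in PGE2 1 and PGE2 3 and at 13.6 TPM in PGE2 2. Under Vehicle the order differed: Ly6a read 2.22, 3.38 and 7.92 TPM, highest in Vehicle 3, and Msc was highest in Vehicle 2. The part of Sca1-positive cells in the Msc values was not tested.

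The genes around these regulators were described by lists of partners, inhibitors, activators and targets. None of their members passed limma's test. For comparison, 56.1% of all tested genes had a lower fitted value in PGE2. Groups were separate for 4.84% of all tested genes with PGE2 lower and for 3.18% with PGE2 higher. All 3 E proteins, the dimer partners of the myogenic factors, had lower fitted values, with a median log2 change of -0.34 that ran from -0.56 (without Vehicle 3) to -0.16 (without Vehicle 1). Tcf4, named here after its values were seen, was the only 1 of them with separate groups, at 84.7, 67.6 and 56.0 TPM under Vehicle against 50.8, 54.5 and 48.2 TPM under PGE2. Of 12 tested inhibitors of myogenic bHLH factors, among them the Id proteins, which bind E proteins without binding DNA, 8 had higher and 4 lower values, with a median of 0.04 that ran from -0.16 (without Vehicle 3) to 0.27 (without PGE2 2). Of 10 tested upstream activators, which include Six4 and Eya1 that act on the genes of the myogenic factors, 6 were lower and 4 higher (median -0.29, and from -0.35 without Vehicle 1 to -0.11 without PGE2 2). Of the 6 tested targets of Pax3 and Pax7, such as Met and Fgfr4, 4 were lower and 2 higher (median -0.24, and -0.03 without Vehicle 1).

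Chromatin partners of Pax7 and MyoD comprised 22 tested genes, 17 with lower and 5 with higher fitted values, where 56.1% of all tested genes were lower. Their median log2 change was -0.21. Single PGE2 libraries set the sign of that median, which was 0.11 without PGE2 2, 0.03 without PGE2 3 and -0.54 without PGE2 1. Ezh2, the methyltransferase of Polycomb repressive complex 2, read 151, 154 and 151 TPM under Vehicle against 123, 79.5 and 94.2 TPM under PGE2. All 3 PGE2 values lay below all 3 Vehicle values, and the log2 change was -0.64 ± 0.28 (SE), with a limma p of 0.0483 before and 1.00 after Benjamini-Hochberg adjustment. Kat2b, the acetyltransferase PCAF that acts on MyoD, read 3.72, 9.69 and 5.99 TPM under Vehicle against 4.80, 1.29 and 0.12 TPM under PGE2, which overlap. Its log2 change was -1.52 ± 0.70 (SE), with a limma Benjamini-Hochberg adjusted p of 1.00. Groups were also separate for Sirt1 (lower in PGE2) and Prmt5 (higher in PGE2), both named after their values were seen and with an adjusted p of 1.00 in limma. Over all tested genes, groups were separate for 4.84% with PGE2 lower and for 3.18% with PGE2 higher.

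Targets of MyoD and myogenin numbered 37, of which 21 were tested, 16 with lower and 5 with higher fitted values and a median of -0.26. Of all tested genes 56.1% had a lower fitted value. With 1 library left out the median ran from -0.55 (without Vehicle 3) to -0.25 (without PGE2 2). The groups were separate, lower in PGE2, for Ttn, Acta1 and Rb1, as for 4.84% of all tested genes. The log2 changes were -1.41 ± 0.52 (SE) for the titin gene Ttn, -1.41 ± 0.59 for the actin gene Acta1 and -0.76 ± 0.35 for the retinoblastoma gene Rb1, and none passed limma's test. Tnnt1, which encodes slow troponin T, was at 2.09, 4.37 and 1.82 TPM under Vehicle and at 0 under PGE2. It reached the minimum of 1 TPM in 3 libraries through the Vehicle group alone, so it had to differ to be tested, and its separate groups are a description. Tnnt1 is nonetheless counted among the 16 lower targets and in the median of the 21. Beside Myog, the 34 genes that were above 0 in Vehicle and at 0 in PGE2 included 3 targets of this list, Tnnt1, Tnni1 and Myl1, chosen for mention after their values were seen. They are 3 of the 8 list members in that range of Vehicle means, where 1.43% of all protein-coding genes in the range were at 0 in PGE2. Their Vehicle means of 2.76, 1.27 and 1.22 TPM are near the floor, and the count was not tested. Tnni1, the slow troponin I, read 0.99, 2.32 and 0.50 TPM in Vehicle, and the myosin light chain gene Myl1 read 0.59, 2.02 and 1.05 TPM. Like Myog, both had their highest value in Vehicle 2. Of the 5 targets with higher fitted values, Tnnc1, named after its values were seen, had the largest log2 change, 0.75 ± 0.79 (SE). It read 0.84, 0.50 and 2.02 TPM under Vehicle against 6.91, 4.03 and 0 TPM under PGE2, which overlap. Des, which encodes the muscle intermediate filament desmin, overlapped, at 72.0, 107 and 86.6 TPM under Vehicle against 34.9, 66.7 and 90.8 TPM under PGE2.

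Among the Mef2 factors, which act with the myogenic bHLH proteins, Mef2c read 0.97, 3.39 and 1.25 TPM under Vehicle against 0, 10.6 and 2.14 TPM under PGE2. As for Msc, the highest value was in PGE2 2. Of the 3 tested Mef2 genes 2 were higher and 1 lower, and their median of 0.30 became -0.38 without PGE2 2, -0.36 with a pseudocount of 0.1 and 0.66 without Vehicle 2. Of the 17 tested genes of muscle stem cell identity, 13 were lower and 4 higher, where 56.1% of all tested genes were lower. Their median of -0.15 ran from -0.33 (without Vehicle 1) to -0.10 (without PGE2 2). The groups were separate, lower in PGE2, for 1 of the 17, Spry1, as for 4.84% of all tested genes. Spry1, an inhibitor of growth factor signalling in quiescent stem cells, had a log2 change of -0.99 ± 0.48 (SE) and an adjusted p of 1.00 in limma.

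**Figure D5:**
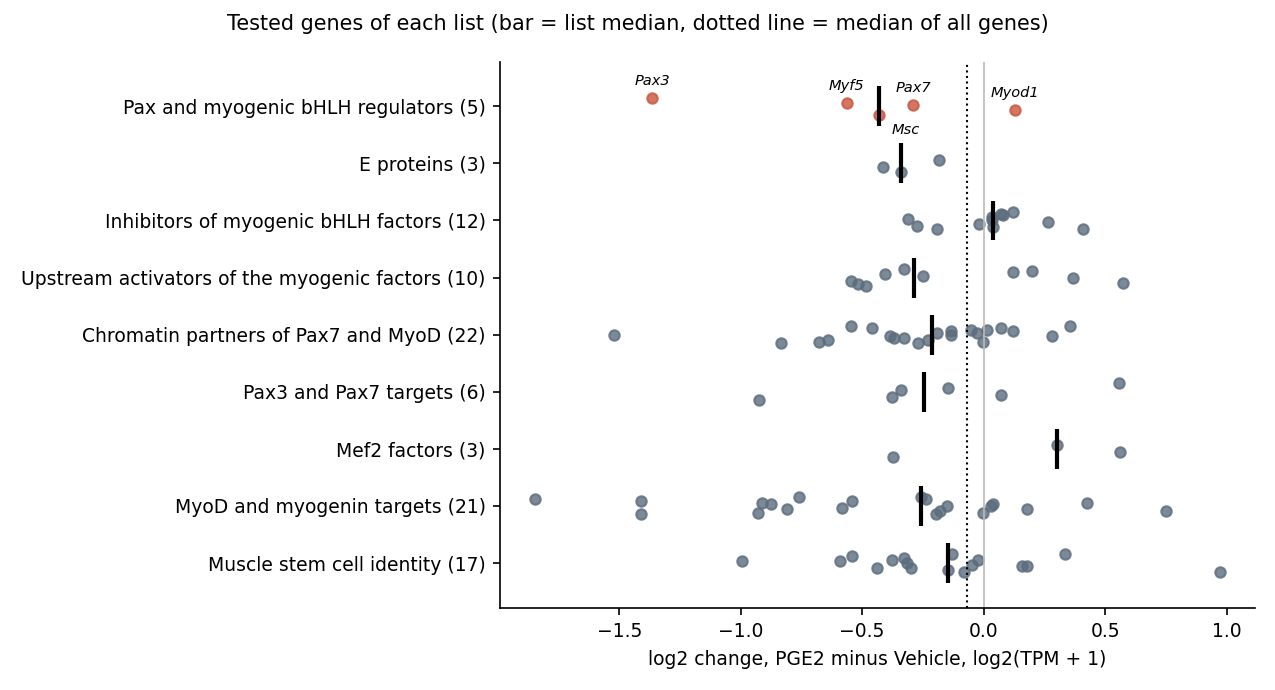
Log2 change (horizontal axis, difference of log2(TPM + 1), PGE2 minus Vehicle) of each tested gene in the 9 lists, with the number tested in brackets. Black bars are list medians. They run from -0.43 for the Pax and bHLH regulators, the value of Msc, to 0.30 for the Mef2 factors (-0.38 without PGE2 2). The dotted line is the median over all genes, -0.07.

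The genes most like each regulator over the 6 libraries were found by Pearson's r of log2(TPM + 1) among 7383 or 7384 protein-coding genes averaging at least 5 TPM. With 6 points and so many genes, high values are common: r was over 0.9 for 231 genes with Pax7, 116 with Myod1, 74 with Myf5, 54 with Msc and 37 with Pax3. Nearest to Pax7 were Klhl13, a cullin adaptor gene (r = 0.998), Copa, of the COPI vesicle coat (0.992), and Dnmt1, the maintenance DNA methyltransferase (0.992). Dnmt1 read 100.2, 79.9 and 55.3 TPM under Vehicle against 137, 50.8 and 40.9 TPM under PGE2, in the same order of libraries as Pax7 (Spearman's rho of 1.00). Without the 2 libraries farthest from the Pax7 median, PGE2 1 and PGE2 3, r was 0.989 to 0.998 for these 3 genes. They were picked for their r over these same libraries, so this is a description and no separate check.

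Nearest to Myf5 were Klhl9 (r = 0.995), Ltbp1, which encodes a latent TGF beta binding protein (0.988), and the lipoprotein lipase gene Lpl (0.983). Their likeness leaned on PGE2 1 and PGE2 2, without which r was 0.831 to 0.854. Lpl read 41.3, 42.9 and 54.8 TPM under Vehicle against 18.9, 33.0 and 49.5 TPM under PGE2. Nearest to Myod1 were 5031439G07Rik (r = 0.993), Efhd2 (0.989) and the site-1 protease gene Mbtps1 (0.985), all highest in PGE2 1 and lowest in PGE2 2, as Myod1 was. Nearest to Pax3 were Gpatch2 (0.987), the transcription factor gene Ebf1 (0.970) and Ndufb6, of respiratory complex I (0.969). Nearest to Msc were Mnd1, a meiotic recombination gene (0.989), Hypk (0.988) and Rusc2 (0.981), all highest in PGE2 2. Hypk read 137, 179.7 and 151 TPM under Vehicle against 115.8, 245 and 100.9 TPM under PGE2.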

How the data were processed

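RNA-seq values of 6 libraries were used. STAR, RSEM and build mm10 are named per the submitters' processing notes, without versions or settings. The authors deposited TPM values, 1 column per library; the unit was read from the values, which sum to 992357 to 995645 per library, and depth is unknown. Of 43283 identifiers, 42782 were found in GENCODE M21 (build mm10), which gave positions and gene types. The labels' protocols name NuGEN cDNA amplification before library construction, which can distort low levels.

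The 12781 genes that reached 1 TPM in at least 3 libraries were compared with limma 3.58.1 in R 4.3.3 on log2(TPM + 1), with a trended variance prior, two-sided, Benjamini-Hochberg adjusted over all of them at 0.05. Members below that minimum had an exact permutation test over libraries. Python 3.11.15 made the descriptions and figures. The fit was tested on simulated data with independent normal noise and, for each gene, the same SD in both groups. Changes were put only into genes well above the floor. That test therefore covers neither the wider spread in PGE2 nor the low members.

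The members and lists were chosen with earlier results of these data known; 1 gene of the upstream activator list, left out of its counts, and the glial marker list are not reported here. Named were all members, up to 4 genes per list with an unadjusted p under 0.1, Mef2c, Des, Cdh15, the sort markers, and the 3 protein-coding genes with the highest Pearson's r to each tested member; other names are marked in the text. Alternatives covered pseudocounts of 0.1 and 0.5, filters, scalings, the variance prior, library weights, a replicate block and each library left out.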

Additional observations from a re-analysis of the deposited data

How the results depend on the processing

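No gene named in the report passed limma's test under any setting run; the number over all genes was 0 as reported, 1 with a robust variance prior, and 0 to 2 with 1 library left out, each a Gm-numbered gene model outside the members and lists. The number at an unadjusted p under 0.05 was 464 as reported, 257 with a filter of 5 TPM (fewer genes tested), 979 without PGE2 1 and 758 without PGE2 3. With 1 library left out, the log2 change of Pax7 ran from -0.717 (without PGE2 1) to 0.007 (without PGE2 3), that of Myod1 from -0.037 (without PGE2 1) to 0.314 (without PGE2 2), and that of Msc from -1.58 (without PGE2 2) to 0.148 (without PGE2 1 or PGE2 3). In the same way Mef2c ran from -0.602 (without PGE2 2) to 1.17 (without PGE2 1), Cdh15 from -0.469 (without PGE2 1) to 0.70 (without Vehicle 1), with a lower PGE2 level also without Vehicle 3 (-0.394), and Myf6 from -0.333 (without PGE2 3) to 0.185 (without Vehicle 2). The sign also turned for Mef2c with a pseudocount of 0.1 (-0.358) and for Cdh15 after quantile normalization (-0.003) and with library weights (-0.137). Pax3 and Myf5 kept a negative log2 change under every setting run for them. For Myog the settings could not turn the sign, because no PGE2 library had a reading of it while each Vehicle library did. Its negative sign there is therefore no check of the direction. With a pseudocount of 0.1 the log2 change of Msc was -2.13 in place of -0.43, since 2 of its libraries are at 0. Over all tested genes, same-numbered libraries had correlations of -0.06, -0.04 and 0.07 of their deviations from the group means. These do not decide whether the libraries were paired. Pax7 fell and Myf5 rose from replicate 1 to replicate 3 in both groups. With the replicate number as a block, the SE was 0.353 in place of 0.427 for Pax7 and 0.315 in place of 0.356 for Myf5. For Myod1 it was 0.306 in place of 0.292. With the replicate number as a block, 0 genes passed and 482 had an unadjusted p under 0.05. The cause of these changes was not tested. Low readings limit Myog, Myf6, Msc and Pax3 most, since TPM gives no depth from which to judge a 0.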
